A study of Bos taurus with 3 samples.

Results

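The cells described here are BMP2, OMD and DKK1 high stromal cells of a bovine bone marrow culture. They were chosen by a score, the mean over BMP2, OMD, DKK1, ENPP1 and EDNRA of the natural log of 1 plus the gene's UMIs per 10000 UMIs of the cell. A UMI (unique molecular identifier) tags 1 captured RNA molecule. Eligible marrow barcodes had at least 4415 UMIs and less than 0.02% of them from the macrophage genes TYROBP, FCER1G and AIF1. The 15% of eligible cells with the highest score gave 1245 members of 8297 cells, and the other 7052 marrow stromal cells are the comparison. In all 3 libraries of the study, 18765 barcodes reached that UMI minimum, 9281 of them from marrow.

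The study sequenced mesenchymal stromal cells cultured from bone marrow, adipose tissue and peripheral blood of 1 healthy Holstein-Frisian cow in its first lactation. Each tissue gave 1 library of the 10x Genomics 3' v3.1 kind. All 3 cultures were WT and untreated, shared the donor, and were grown in low-glucose DMEM with 30% FBS, penicillin-streptomycin and L-glutamine until colonies appeared. No tissue had a replicate library, so there is no test, and the 95% intervals below cover counting error only.

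BMP2 is a secreted bone morphogenetic protein that drives progenitor cells towards bone by way of SMAD proteins, and DKK1 is a secreted inhibitor of canonical Wnt signalling. OMD (osteomodulin) is a small leucine-rich proteoglycan of mineralised matrix. ENPP1 releases pyrophosphate, an inhibitor of mineral deposition, outside the cell, and EDNRA is a receptor for endothelin-1. Marrow stroma grown on plastic is a mixture that holds precursors of bone-forming cells.

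The libraries held 106322567 UMIs for marrow, 99356868 for adipose tissue and 98016815 for blood. Members had a median of 8527 UMIs and 2732 genes per cell, against 9202 UMIs and 2818.5 genes in the other marrow stroma. Mitochondrial genes took a median of 2.55% of UMIs in members and 2.43% in the others, and ribosomal protein genes 23.7% and 24.0%. Of the 1245 member barcodes, 3 also reached the minimum in the adipose library and 3 in the blood library. Doublets were not called and not removed.

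The stromal label held for the members. The 14 stromal markers summed to 24502 CPM (counts of UMIs, summed over the cells of a group and scaled to a common total) in members and 22980 CPM in the others, with VIM, the mesenchymal intermediate filament, at 11971 and 11715 CPM. All 12 macrophage markers together gave 14.7 CPM in members and 15.5 CPM in the others. TYROBP, FCER1G and AIF1 are among them, so low sums in both groups were in part fixed by the macrophage limit. The 7 endothelial markers gave 0.959 and 1.05 CPM, with CDH5, TEK, SELE and SELP at 0 in members. Adipocyte markers gave 8.55 and 11.8 CPM, with ADIPOQ and LEP at 0 in members. Of the 4 neutrophil markers, which summed to 29.3 CPM in members and 36.8 CPM in the others, S100A12 held most, with 22.6 and 28.1 CPM, and it was at 5532 CPM in the free RNA of the library (barcodes of 10 to 100 UMIs). B cell markers were at 0, and the T cell, erythroid, megakaryocyte and epithelial lists were each under 1 CPM in both groups. Sums of markers of mural cells were 65.8 and 61.2 CPM, of chondrocytes 3.52 and 2.28 CPM, and of marrow reticular cells 77.1 and 92.9 CPM, with LEPR at 0 in members.

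The score did not divide the marrow stroma into separate classes. At 0 lay 933 cells (11.2% of the eligible cells). In steps of 0.05, the next step held 40 cells, the counts were then between 383 and 554 up to a score of about 0.6, and from there they fell off to the highest score of 1.96, with no gap at the limit. The lowest member scored 0.885, and the median was 1.06 in members and 0.386 in the others. Within 0.05 of the limit lay 209 members and 259 other cells. The 50 members just inside the limit had 388 CPM of BMP2 and 171 CPM of OMD, and the 50 cells just outside it had 393 and 185 CPM. DKK1 was at 102 CPM in each of these sets, ENPP1 at 232 and 204 CPM, and EDNRA at 124 and 132 CPM. The members are thus the upper range of a continuous score, and cells on either side of its limit were alike in these genes.

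**Figure D1:**
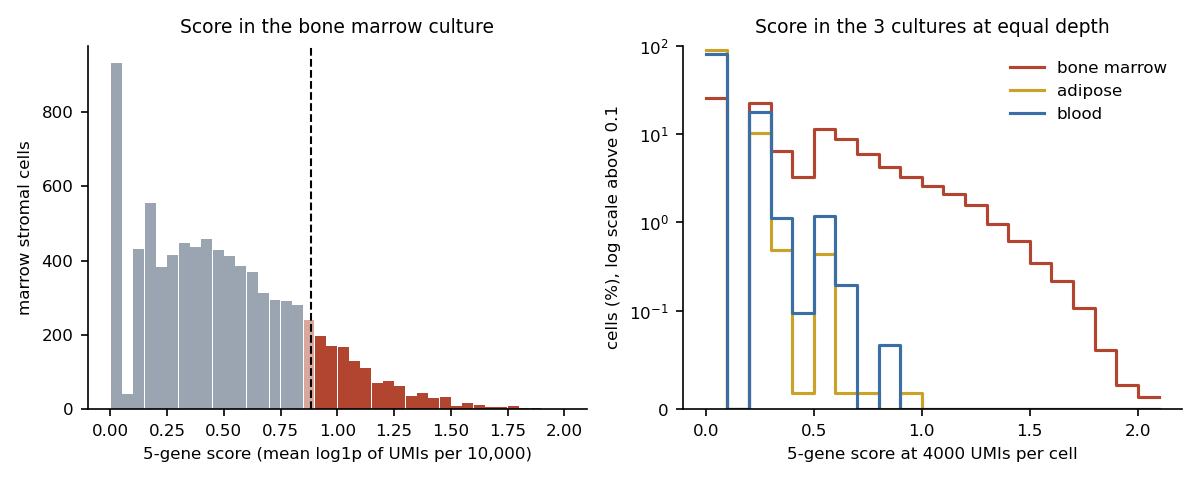
Left: number of marrow stromal cells (y axis) by 5-gene score (x axis, mean natural log of 1 plus UMIs per 10000), with members in red, other marrow stroma in grey, a pale bar where the limit falls inside a bin, and the limit as a dashed line at 0.885. Right: percent of stromal cells (y axis, log scale above 0.1 and linear below) by the score of cells thinned to 4000 UMIs, for the marrow, adipose and blood cultures. The marrow scores fall off through the limit without a gap, and nearly all adipose and blood cells lie far below it.

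Because the members were selected on them, the levels of the 5 genes are a description and not a finding. BMP2 was at 508.5 CPM in members and 135 CPM in the other marrow stroma, a ratio of 3.76 (95% interval 3.65 to 3.88). OMD was at 259 and 64.4 CPM (4.03, 3.85 to 4.21). A UMI of all 5 genes was found in 282 members (22.7%), while 655 (52.6%) had one of 4 genes, 301 (24.2%) of 3 and 7 (0.562%) of 2; a gene without a UMI at this depth may still be expressed. Among the others, 157 (2.23%) had all 5 genes and 662 (9.39%) had 4. ENPP1 was at 308 and 74.7 CPM (4.12, 3.95 to 4.29), EDNRA at 178 and 53.3 CPM (3.33, 3.16 to 3.51) and DKK1 at 205 and 71.4 CPM (2.87, 2.73 to 3.0). DKK1 thus had the smallest ratio of the 5. BMP2 gave the largest term of the score in 609 members (48.9%), ahead of OMD in 199 (16.0%), ENPP1 in 190 (15.3%), DKK1 in 179 (14.4%) and EDNRA in 68 (5.46%).

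Detection was compared after each cell was thinned, that is, reduced at random to 4000 UMIs, so that depth was equal. BMP2 then had a UMI in 78.6% of members and 32.8% of the other marrow stroma (93.7% and 52.5% without thinning). OMD had one in 60.3% and 19.4% (85.1% and 37.4% without thinning), and ENPP1 in 67.8% and 21.7% (89.3% and 41.0%). The least often detected were EDNRA, in 51.7% of members and 17.5% of the others (75.4% and 35.9% without thinning), and DKK1, in 38.6% and 18.2% (53.7% and 30.0%). As a background for free RNA, the 385 marrow barcodes with at least 0.3% of UMIs from the 3 macrophage genes were thinned alike. These macrophage-like barcodes, with a median of 5816 UMIs, had a UMI of BMP2 in 0.260%, of OMD in 0.779%, of DKK1 in 0.519%, of ENPP1 in 7.01% and of EDNRA in 0.260%. All 5 shares in members and in the other stroma were above these, the nearest being ENPP1.

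The values used for choosing overstate the contrast, so each gene was also measured in UMIs that did not choose the cells. When the UMIs of every cell were divided at random into 2 parts, cells chosen on the one part and measured on the other, BMP2 was 2.90 times as high in the chosen cells (2.77 to 3.03), ENPP1 2.99, OMD 2.65, DKK1 2.3 and EDNRA 2.21. Of the members chosen in this way, 908 (72.9%) were members by the full score. A stricter view leaves the measured gene out of the score. BMP2 was then at 333 CPM in the top 15% and 164 CPM in the rest (2.03, 1.96 to 2.10), and OMD at 166 and 79.6 CPM (2.09). ENPP1 was at 205 and 91.8 CPM (2.24), and EDNRA at 118 and 63.1 CPM (1.87). These 4 genes thus went together in the same cells. DKK1 went little with them: it was at 97.1 CPM in the top 15% by the other 4 genes and 89.4 CPM in the rest (1.09, 1.02 to 1.16), and at 4000 UMIs it had a UMI in 21.1% and 21.3% of these cells.

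**Figure D2:**
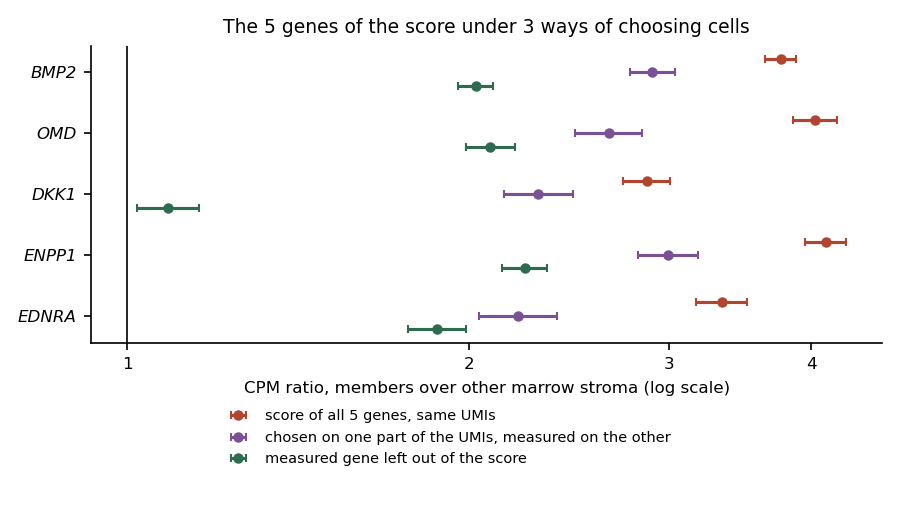
Ratio of CPM in members over other marrow stroma (x axis, log scale) for each gene of the score (y axis), with 95% intervals from UMI counts as bars, under 3 ways of choosing the cells. Ratios of BMP2, OMD, ENPP1 and EDNRA stay at 1.87 or more when the gene is left out of the score, and that of DKK1 is 1.09.

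Pairs of genes in single cells at 4000 UMIs gave the same picture. The strongest pair was OMD with ENPP1: OMD had a UMI in 38.9% of the 2375 cells with ENPP1 (37.0 to 40.9) and in 20.2% of the 5922 cells without it (19.1 to 21.2). In the 3292 cells with BMP2, OMD was found in 32.1%, ENPP1 in 37.0% and EDNRA in 28.6%, against 21.2%, 23.1% and 18.7% of the 5005 cells without BMP2. The 1766 cells with DKK1 had OMD in 23.5% (21.5 to 25.5) and EDNRA in 22.4%, against 26.1% (25 to 27.2) and 22.7% of the 6531 cells without DKK1. With BMP2 the share was 42.0% in cells with DKK1 and 39.1% in cells without, and with ENPP1 it was 30.8% and 28.0%. DKK1 was therefore spread nearly evenly over cells with and without each of the other genes. A DKK1 UMI was found in 19.6% of cells with OMD (17.9 to 21.3) and in 21.9% of cells without it (20.8 to 22.9), with intervals that overlap.

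Outside the 5 genes, the members were close to the other marrow stroma. Of 2968 other genes with at least 50 CPM in the higher group, 2 were at least 2-fold higher in members (0.0674% of the genes) and 2 at least 2-fold lower (0.0674%). At 1.5-fold, 23 genes were higher (0.775%) and 10 lower (0.337%). The median log2 ratio was 0.00, and 90.8% of genes lay within 1.2-fold. Among the 7028 genes of at least 10 CPM in either group, 75 were at least 1.5-fold higher (1.07%) and 41 at least 1.5-fold lower (0.583%). Below, higher and lower mean at least 1.5-fold unless a ratio is given, and list counts are over genes of at least 10 CPM with the 5 score genes left out.

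Among genes of the BMP pathway, the one that stood out was BAMBI, a membrane pseudoreceptor that lacks a kinase and damps TGF-beta and BMP signalling. BAMBI was at 68.6 CPM in members and 21.7 CPM in the other marrow stroma, a ratio of 3.15 (2.90 to 3.43), which was the largest of any gene outside the score at 50 CPM. At 4000 UMIs it had a UMI in 23.5% of members, 7.71% of the others and 0.260% of the macrophage-like barcodes. SMAD1, an intracellular transducer of BMP signals, was at 36.0 and 23.1 CPM (1.56, 1.40 to 1.73). These were the 2 genes that were higher among 14 BMP receptors, transducers and targets, none of which was lower. The receptors BMPR2 (1.24), BMPR1A (1.22) and ACVR1 (1.30) and the inhibitory SMAD6 (1.30) were under 1.5-fold. The BMP target genes ID1, ID2 and ID3 were not higher. ID1 was at 1611 CPM in members and 1659 CPM in the others (0.97), ID2 at 238 and 260 CPM (0.91) and ID3 at 195 and 209 CPM (0.93).

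Ligands and their antagonists other than BMP2 differed little, with 1 exception. FST (follistatin), a secreted antagonist of activins and BMPs, was at 5.44 CPM in members and 22.7 CPM in the others, a ratio of 0.24 (0.19 to 0.31) that rests on 68 UMIs in the members. FST was the only lower gene among 8 ligands and antagonists, and none was higher. INHBA, the subunit of activin A, was at 200 and 151 CPM (1.33), GREM1, a BMP antagonist, at 140 and 112 CPM (1.26), and BMP4 at 45.2 and 36.7 CPM (1.23).

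The bone-lineage genes lay mostly above 1, and under 1.5-fold in the greater part. Of 14 bone-list genes, 13 had a ratio over 1, 5 were higher and 0 lower, and their median log2 ratio was 0.53, against 0.00 over all genes of at least 10 CPM, of which 1.07% were higher. At 50 CPM, 8 of 9 had a ratio over 1 and 1 was higher, with a median of 0.23. SP7 (osterix), a transcription factor needed for osteoblasts, was at 49.1 CPM in members and 27.4 CPM in the others (1.79, 1.64 to 1.97). DLX5, a homeobox regulator upstream of SP7, was at 102 and 62.5 CPM (1.64, 1.54 to 1.75). RUNX2, the master regulator of the lineage, was at 77.5 and 52.9 CPM (1.46, 1.36 to 1.57), just under 1.5-fold. IBSP (bone sialoprotein), a matrix protein of mineralising bone, was low, with 11.9 and 5.66 CPM (2.10, 1.73 to 2.54). SPP1 (osteopontin) was at 1482 and 1042 CPM (1.42, 1.40 to 1.44), and the main bone collagen gene COL1A1 was at 3978 and 3977 CPM (1.00, 0.99 to 1.01). Some other osteoblast genes were close to absent in both groups: ALPL was at 0.560 and 0.320 CPM, BGLAP (osteocalcin) at 0.400 and 0.213 CPM, and PHEX at 0.160 and 0.0399 CPM. The lists were chosen with results of these data known, so their counts are not independent evidence.

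**Figure D3:**
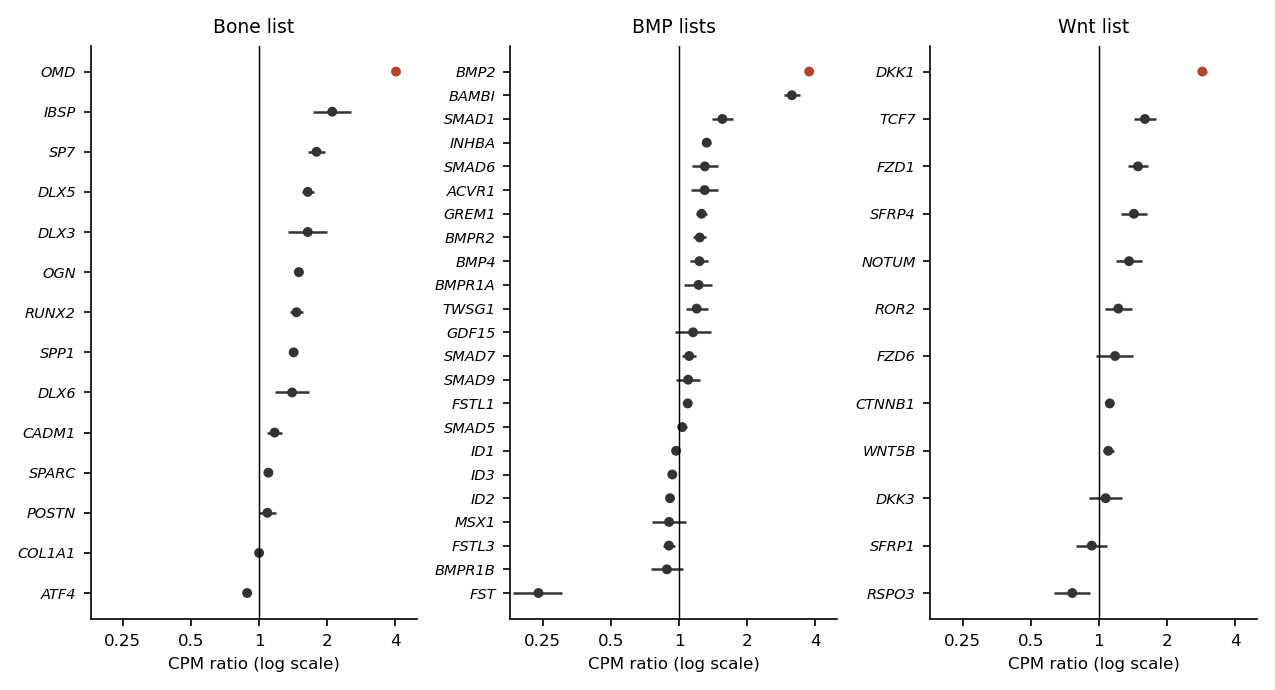
Ratio of CPM in members over other marrow stroma (x axis, log scale) for reported genes of at least 10 CPM in the bone, BMP and Wnt lists (y axis), with 95% intervals from UMI counts as lines. Red points are genes of the score, which chose the cells. Bone-lineage regulators lie to the right of 1, most BMP and Wnt genes lie near 1, BAMBI at 3.15 is far to the right and FST at 0.24 far to the left.

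Wnt genes moved less. Of 11 Wnt-list genes besides DKK1, 9 had a ratio over 1 and 1 was higher: TCF7, a transcription factor of the canonical pathway, at 33.7 CPM in members and 21.1 CPM in the others (1.60, 1.43 to 1.78). The receptor FZD1 was at 36.9 and 24.7 CPM (1.49), and the secreted inhibitors SFRP4 and NOTUM had ratios of 1.43 and 1.36. CTNNB1 (beta-catenin) was at 207 and 185 CPM (1.12). The agonist RSPO3 had the lowest ratio of the list, 0.76, at 11.2 and 14.7 CPM.

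Among genes of mineral handling next to ENPP1, ANKH, which carries pyrophosphate and ATP out of the cell, was higher, at 205 CPM in members and 135 CPM in the others (1.52, 1.46 to 1.59). The phosphate importer SLC20A1 was at 71.2 CPM in both groups (1.00). NT5E (CD73), which makes adenosine from AMP and is used as a stromal surface marker, was at 95.4 and 130 CPM (0.74). The endothelin partners of EDNRA were not higher in members: the converting enzymes ECE1 and ECE2 had ratios of 0.69 and 0.85, and the other endothelin genes were under 10 CPM.

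Matrix genes were mixed, and 2 of 8 small leucine-rich proteoglycans besides OMD were higher. Of the 8, ECM2 was at 75.8 CPM in members and 38.6 CPM in the others (1.97, 1.82 to 2.12), ASPN at 16.7 and 9.71 CPM (1.72, 1.47 to 2.01), OGN at 234 and 156 CPM (1.44 to 1.56, just under 1.5-fold) and DCN at 652 and 439 CPM (1.49, 1.45 to 1.52). LUM (1.08), BGN (0.96) and FMOD (0.85) of the same family were near 1. In the RefSeq gene order of another assembly, ARS-UCD2.0, OMD lies between OGN and ASPN on chromosome 8. The next genes outwards are CENPP (0.93) beside OGN and ECM2 beside ASPN, and then NOL8 (0.97) and IPPK (1.09). Neighbours of BMP2, DKK1, ENPP1 and EDNRA were low in both groups or had ratios between 0.78 and 1.22 where they reached 1 CPM.

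Other matrix genes that were higher are THBS2, a matricellular thrombospondin, at 143 CPM in members and 71.9 CPM in the others (1.99, 1.88 to 2.10), and the fibrillar collagen COL3A1, at 519 and 326 CPM (1.59, 1.55 to 1.63). COL11A1, a minor fibrillar collagen of cartilage and bone precursors, was lower, at 32.4 and 55.4 CPM (0.58), as was FBLN2 (fibulin-2), at 126 and 197 CPM (0.64). Of 14 collagens, 1 was higher and 1 lower, and their median log2 ratio was -0.0055.

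Of the lists of secreted signals, growth factors had 1 gene higher and 2 lower of 9, and chemokines and cytokines 1 higher of 9. Of 11 axon guidance genes, 1 was higher. FGF7 (keratinocyte growth factor) was at 657 CPM in members and 424 CPM in the others (1.55, 1.51 to 1.59), IL6 at 436 and 287 CPM (1.52, 1.47 to 1.56) and TGFB1 at 136 and 88.7 CPM (1.54, 1.46 to 1.62). The call of IL6 was the weakest of these: in 17 other ways of choosing or scaling the cells it stayed past 1.5-fold in 6, with ratios between 1.23 and 1.54, while FGF7 did in all 17 and TGFB1 in 14. The receptor subunit IL6ST had a ratio of 1.45 and LIFR, at 12.1 and 7.11 CPM, one of 1.70. UNC5B, a receptor for netrins, was at 191 and 108 CPM (1.76, 1.68 to 1.84), while its ligand NTN1 had a ratio of 0.96. DPYSL3, a cytoskeletal protein of neurite outgrowth, was at 84.9 and 48.1 CPM (1.77). CXCL12, the chemokine that retains blood stem cells in marrow, was at 68.0 and 83.5 CPM (0.81).

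The other gene past 2-fold was OTULINL, a protein related to a deubiquitinase, at 54.0 CPM in members and 23.5 CPM in the others (2.3, 2.10 to 2.51). It had a UMI in 20.6% of members and 8.62% of the others at 4000 UMIs, and in 7.79% of the macrophage-like barcodes. CKB, the brain-type creatine kinase, was at 607 and 309 CPM (1.96, 1.91 to 2.02), and was also in 73.0% of the macrophage-like barcodes. APOA1, the main protein of high-density lipoprotein, was at 92.6 and 48.2 CPM (1.92, 1.79 to 2.05). The other genes that were higher had ratios of 1.87 (PLEKHA5), 1.83 (INSC and BICC1), 1.75 (TMEM190), 1.59 (DDC), 1.51 (RGS3 and TMEM59) and 1.5 (ELL2 and MANSC1). Of these, TMEM59, ELL2 and MANSC1 stayed past 1.5-fold in 7, 8 and 6 of the 17 other ways.

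Detection of these genes differed too. At 4000 UMIs, THBS2 had a UMI in 40.7% of members and 23.0% of the others, DLX5 in 31.8% and 20.3%, and UNC5B in 49.4% and 30.4%. COL3A1 was found in 72.5% and 53.3%, FGF7 in 88.3% and 72.2%, and IL6 in 52.9% and 43.0%. These shares depend on depth: without thinning, members had a UMI of FGF7 in 97.6%, of COL3A1 in 86.7% and of UNC5B in 75% of cells. In the macrophage-like barcodes the shares were 0.519% for THBS2 and DLX5, 2.08% for UNC5B and 3.12% for COL3A1. They were 2.34% for FGF7 and 3.64% for IL6, so UMIs of these genes in stromal cells were above the background of free RNA. For some higher genes the macrophage-like barcodes give no such background, as the level there was above that in free RNA. MANSC1 was at 184 CPM in these barcodes and 39.3 CPM in free RNA, and TGFB1 at 81.6 and 57.7 CPM. ELL2 (80.8 and 76.2 CPM) and TMEM59 (71.9 and 65.4 CPM) were only slightly above free RNA. MANSC1 had a UMI in 51.9% of the macrophage-like barcodes and 22.8% of members, and TMEM59 in 26.8% and 20.5%. ELL2 was found in 26.5% of these barcodes, 36.3% of members and 25.5% of the others, and TGFB1 in 27.8%, 41.3% and 28.4%.

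The genes that were lower began with IGFBP3, a carrier of insulin-like growth factors, at 24.1 CPM in members and 64.8 CPM in the others (0.37, 0.33 to 0.42). MT2A, a metallothionein, was at 269 and 585 CPM (0.46, 0.44 to 0.48), but it was also at 656 CPM in free RNA and had a UMI in 45.5% of the macrophage-like barcodes, against 51.2% of members and 67.6% of the others. Metallothionein genes are near-identical, so its count is uncertain. ACTA2 (smooth muscle actin), a mark of contractile stroma, was at 88.3 and 151 CPM (0.58, 0.55 to 0.62). PTN (pleiotrophin) had a ratio of 0.63, an unnamed gene, ENSBTAG00000020097, 0.64, MAN1A1 0.65 and CITED4 0.66.

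Groups of genes lay lower together by small amounts. Of 15 contractile genes, 2 had a ratio over 1 and 3 were lower, ACTA2, CNN1 (0.59) and TAGLN (0.66). All 33 G2M genes had ratios under 1, and the list summed to 3782 CPM in members and 4516 CPM in the others, with CKS2 lowest at 219 and 322 CPM (0.68). Of 23 S-phase genes, 3 were over 1 (1457 and 1600 CPM for the list). The 11 heat shock genes were all under 1, with a median log2 ratio of -0.16, and of 17 genes of the integrated stress response 3 were over 1 (-0.16). By contrast, 13 of 15 endoplasmic reticulum chaperone genes were over 1 (0.14), MANF with the highest ratio at 887 and 739 CPM (1.2). No gene of these lists other than the 3 contractile ones was past 1.5-fold.

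Since cell cycle genes were lower in members, the comparison was repeated in cells whose S and G2M shares were both under the median. Such low-cycling cells made up 433 of the 1245 members (34.8%, 32.1 to 37.5) and 1721 of the 7052 others (24.4%, 23.4 to 25.4). Within them, BAMBI had a ratio of 3.18 (2.73 to 3.70), DLX5 1.77, SP7 1.66, RUNX2 1.47 and THBS2 1.94. On the lower side, IGFBP3 had a ratio of 0.41 (0.35 to 0.48), MT2A 0.45, ACTA2 0.56 and FST 0.18. The bone regulators and BAMBI were as far apart, or nearly so, among cells of low cycling. G2M genes were not made equal by this choice. Over those of at least 50 CPM, the median log2 ratio was -0.37 among low-cycling cells and -0.26 over all cells. The part of the cell cycle in the ratios of low-cycling cells was not tested. Of the 23 higher genes, 4 were below 1.5-fold there: COL3A1, at 630 CPM in members and 500 CPM in the others (1.26, 1.21 to 1.32), IL6 (1.37, 1.31 to 1.43), TMEM59 (1.37) and RGS3 (1.43).

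The genes that differed between members and the others were also followed along the score. This is a description, since the genes were picked for that contrast and the score is the one that chose the members. The 8297 cells were ranked by score and divided into 10 groups of 829 or 830 cells. BAMBI was at 8.10 CPM in group 1 (lowest scores), 22.3 CPM in group 5 and 76.5 CPM in group 10. CKB was at 143, 328 and 645 CPM in these 3 groups, and THBS2 at 33.3, 77.7 and 150 CPM. These genes climbed with the score along its whole range. On the lower side, MT2A was at 1044 CPM in group 1, 521 CPM in group 5 and 257 CPM in group 10, and IGFBP3 at 82.1, 59.9 and 23.6 CPM. Median depth was 8294 UMIs in group 1, 9491 in group 5 and 8369 in group 10. It followed no steady course along the score, with 9674.5 UMIs in group 2 and 8477 in group 3. Cells with a score of 0 outnumber group 1, so its border with group 2 is arbitrary.

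**Figure D4:**
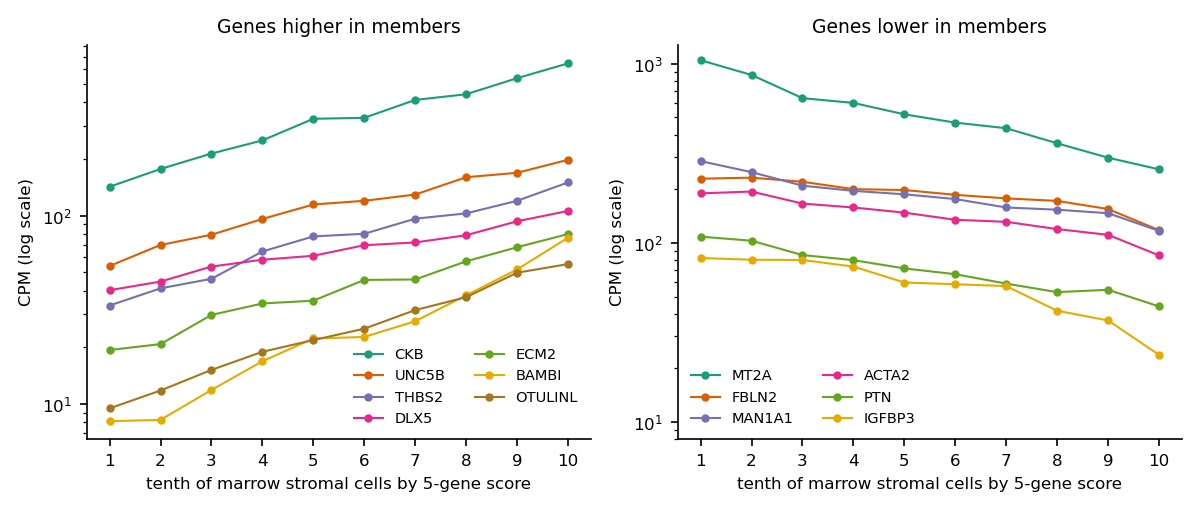
CPM of summed UMIs (y axis, log scale) in the 10 groups of marrow stromal cells by 5-gene score (x axis, 1 lowest, 10 highest), for 7 genes that were higher in members (left) and 6 that were lower (right). BAMBI stands at 8.10 CPM in group 1 and 76.5 CPM in group 10, MT2A at 1044 and 257 CPM, with a slope over all groups between.

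The 23 higher genes were set against each score gene alone. They were chosen as higher in cells selected on these same 5 genes, so ratios over 1 were largely fixed by the choice, most of all for BMP2, and the values are a description. In cells with a UMI of BMP2, OMD, ENPP1 or EDNRA at 4000 UMIs, against cells without, all 23 higher genes had ratios over 1, with medians of 1.45, 1.46, 1.56 and 1.28. In cells with a UMI of DKK1, 11 of the 23 were over 1, the median ratio was 0.990, and 1 gene reached 1.2-fold. COL3A1 was at 269 CPM in cells with DKK1 and 382 CPM in cells without (0.71, 0.67 to 0.74), whereas in cells with OMD it was at 533 CPM, against 297 CPM without (1.79, 1.73 to 1.86). Of the 10 lower genes, 9 were under 1 in cells with DKK1 and 10 for each of the other 4 genes.

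Genes that went with DKK1 were picked after their values were seen. SPP1 was at 1448 CPM in cells with DKK1 and 1016 CPM in cells without (1.43, 1.39 to 1.46), CXCL12 at 108 and 76.4 CPM (1.41), TFPI2, a protease inhibitor, at 2563 and 1943 CPM (1.32) and GREM1 at 148 and 114 CPM (1.30). The cell cycle genes UBE2C (1.31) and KPNA2 (1.21) were higher in cells with DKK1 too. SPP1 was as far apart by ENPP1, at 1414 CPM in cells with it and 985 CPM in cells without (1.44). EDNRA in turn went with CCL2, a chemokine for monocytes, at 119 CPM in cells with EDNRA and 75.8 CPM in cells without (1.58, 1.45 to 1.71). With DKK1 left out of the score, 7 genes were at least 2-fold higher in the top 15%, namely BAMBI (3.19), OTULINL (2.50), ECM2 (2.12), CKB (2.08), PLEKHA5 (2.06), THBS2 (2.03) and APOA1 (2.0).

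To see whether the members lay together in other genes, the marrow stromal cells were clustered with the 5 score genes left out, which gave 6 clusters. Members were found in all 6. They made up 23.9% of cluster 2 (21.8 to 26.0), which was led by MSH6, an unnamed gene (ENSBTAG00000001911) and CCL2, and 21.5% of cluster 1 (19.6 to 23.5), led by CLU, SERPINF1 and NUPR1. Together these held 31.6% and 30.1% of all members. Cluster 0, led by the proliferation genes H3C7, TOP2A and CDCA8, had 14.2% members (12.7 to 15.9), close to the 15% fixed by the choice. Members were fewest in cluster 5, led by IGFBP5, NRN1 and TINAGL1 (3.78%, 2.53 to 5.42), in cluster 3, led by IGFBP3, TNFRSF6B and RCAN2 (6.15%, 4.87 to 7.65), and in cluster 4, led by S100A12, UBE2C and CKS2 (9.98%, 8.24 to 11.9). Cluster 2, the shallowest, had a median of 7703 UMIs per cell, and cluster 0, the deepest, 11061. The part of depth in these shares was not tested.

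DKK1 and OMD differed in where they were high. OMD was highest in cluster 1 (146 CPM) and next in cluster 2 (111 CPM), whereas DKK1 was highest in cluster 2 (142 CPM), then cluster 4 (121 CPM), and at 62.0 CPM in cluster 1. ENPP1 was at 152 CPM in cluster 1 and 133 CPM in cluster 2, and EDNRA was highest in cluster 2 (108 CPM).

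**Figure D5:**
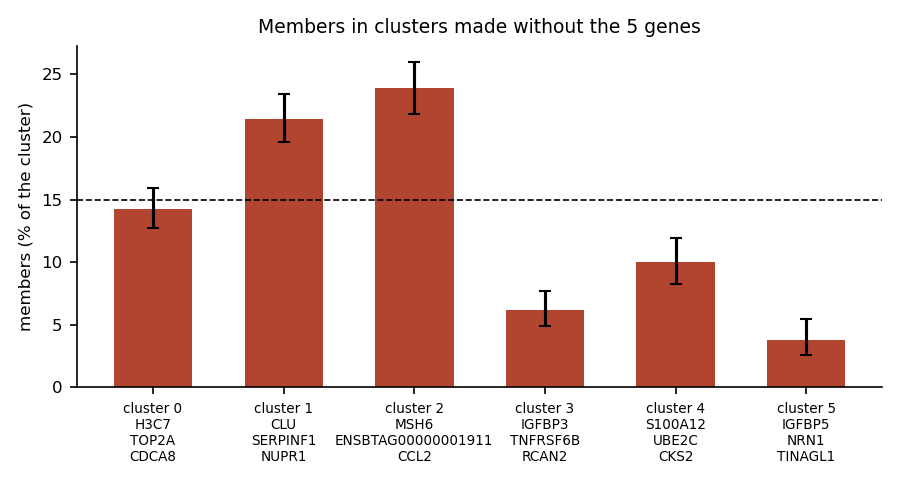
Members as a percent of each cluster (y axis) in 6 clusters of marrow stromal cells made without the 5 score genes (x axis, with the 3 leading genes of each), with exact 95% intervals as error bars. The dashed line marks the 15% of all cells that the choice fixed. Clusters 1 and 2 lie above the line and clusters 3, 4 and 5 below it.

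Members were also compared with the top cells of scores made in the same way from other gene sets of the marrow culture. The top 15% by IGFBP5, TINAGL1, UNC13D, LIPG and INHBA held 161 of the members, 12.9% of each group. The top 15% by SERPINF1, CLU, IFIT1, SORBS2 and ALDH1L2 held 124 of them, 9.96% of each group. Both shares lay below the 15% of all cells that each score takes, although cluster 1, where CLU and SERPINF1 lead, had more members than most clusters.

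Cells with scores as high were rare outside the marrow culture. At 4000 UMIs per cell the limit was set anew, at the score of the marrow cell ranked 1245 at that depth. The marrow share of 15.2% (1265 of 8297 stromal cells, with ties) was therefore fixed by the choice. Of the 1245 marrow cells chosen on thinned scores, 887 were members. At or above that limit were 1 of 6092 adipose cells (0.0164%, 0.000416 to 0.0914) and 2 of 3055 blood cells (0.0655%, 0.00793 to 0.236). The adipose and blood cells had passed the same UMI and macrophage limits. Over all cells that passed those UMI and macrophage limits, without thinning, BMP2 was at 188 CPM in marrow, 3.48 CPM in adipose tissue and 16.9 CPM in blood. DKK1 was at 90.5, 1.41 and 0.482 CPM in the same order of cultures, OMD at 92.2, 8.68 and 13.6 CPM, ENPP1 at 108, 4.36 and 7.21 CPM, and EDNRA at 71.1, 11.9 and 19.7 CPM. With 1 library per tissue, tissue and library cannot be told apart.

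Each other culture was also scored on its own scale. The top 15% of adipose cells (914 against 5178) had 21 of the 23 higher genes over 1, with a median ratio of 1.19, and the top 15% of blood cells (458 against 2597) also had 21, with a median of 1.42. Of all genes of at least 50 CPM, 44.5% were over 1 in each culture. Past 1.5-fold were 4 of the 23 in adipose tissue and 6 in blood, whatever their level there. Of all genes of at least 50 CPM, 0.0993% and 0.304% were. These shares are not a like measure, since all of the genes counted but APOA1 in blood were under 50 CPM there. DLX5 rested on 4 UMIs in the top cells of adipose tissue and 5 in those of blood. APOA1 was at 3.36 (2.41 to 4.64, on 59 UMIs in the top cells) in adipose tissue and 2.38 (2.23 to 2.54) in blood, COL3A1 at 1.33 and 1.47, IL6 at 1.73 and 1.46, and OTULINL at 1.40 and 1.72. For BAMBI the intervals spanned 1: it was at 1.13 (0.81 to 1.55) in adipose tissue and 0.84 (0.57 to 1.2) in blood, on 47 and 34 UMIs in the top cells. Of the 10 lower genes, 4 were under 1 in adipose tissue and 7 in blood, with MT2A at 0.82 and 0.84. Past 1.5-fold lower were 0 of the 10 in either culture at any level, against 0% and 0.203% of all genes of at least 50 CPM. IGFBP3 went the other way in adipose tissue, at 71.7 CPM in the top cells and 48.7 CPM in the rest (1.47, 1.37 to 1.58).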

How the data were processed

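The authors deposited counts: whole numbers of UMIs per gene and barcode, from Cell Ranger (6.1.1 per the submitters' processing notes, 4 per the file headers) on the build ARS-UCD1.2 that those notes name. The deposited gene names and barcodes (other unit) label the rows and columns; the matrices had not been reduced to cells. Levels are 3'-tag UMIs and are not per gene length. No coordinates are printed.

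UMIs were summed over the cells of a group, scaled to CPM and compared as a ratio, with an exact conditional binomial 95% interval (scipy 1.17.1). Shares carry Clopper-Pearson intervals. Intervals cover counting error only, and cells of 1 library are not replicates. Genes counted as higher or lower past a fold of 2 or 1.5 with at least 50 CPM in the higher group, or 10 CPM where stated. Clusters are Leiden clusters from scanpy 1.11.5 (10000 UMIs per cell, log scale, 2000 variable genes, 30 components, 15 neighbours, resolution 0.5, seed 1). TMM factors came from edgeR 4.0.16. The calculation was tested on simulated data.

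Named genes are the score genes, the 15 largest ratios in each direction at 100 CPM, called list members, the highest gene of a list, and genes of the BMP, Wnt, bone and endothelin lists at 10 CPM. Genes beside DKK1 and EDNRA, neighbours of the score genes, genes past 1.5-fold at 50 CPM, leading genes of clusters, and other list genes given as examples were chosen after their values were seen. Of 914 list entries, 881 were found by symbol. Some genes that enter the counts are not reported here. The members and lists were chosen with earlier results of these data known.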

Additional observations from a re-analysis of the deposited data

How the results depend on the processing

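The 23 higher and 10 lower genes kept their side of 1 in every alternative run. Between 14 and 23 of the higher and 5 and 10 of the lower stayed past 1.5-fold. Keeping the side of 1 was largely fixed in advance. The genes were picked in these same cells, and many alternatives chose mostly the same members. Changes of the fold or of the CPM minimum leave the ratios of these genes as they are. The counts past 2-fold, 2 higher and 2 lower, moved by few genes. The higher count was 4 with the top 10% or top 20% as members, without the 5% deepest cells, and with means over cells. It was 7 without DKK1 and 1 without ENPP1 in the score, and 1 in low-cycling cells scored alone. The lower count was 1 without OMD or without ENPP1 and 4 in low-cycling cells, scored alone or with members as in the whole set (an alternative added after seeing the data). A fold of 1.5 gave 23 and 10, a fold of 3 gave 1 and 0, a minimum of 10 CPM gave 17 and 8, and no minimum 543 and 1105, genes of few UMIs. With UMIs divided in 2 parts, ratios were 2.90 (BMP2), 2.65 (OMD), 2.3 (DKK1), 2.99 (ENPP1) and 2.21 (EDNRA), and with the gene left out of the score 2.03, 2.09, 1.09, 2.24 and 1.87 in the same order; both keep the choice of cells apart from the measured UMIs by construction. The log2 medians of 4 lists changed sign, here taken over list genes of at least 50 CPM and not the 10 CPM used for lists above. In low-cycling cells scored alone, growth factors were at 0.015 (main value -0.21), histones at 0.17 (-0.082), mineral handling at 0.12 (-0.0015) and matrix remodelling at -0.013 (0.068). With members as in the whole set, histones were at 0.14 and mineral handling at 0.045 there, and mineral handling was at 0.015 with members chosen within 5 classes of depth. The cause was not tested. Depth limits rare genes: ALPL rests on 7 UMIs in members, and no order is read from it. No paired analysis was possible because each tissue has 1 library.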

Other observations

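Some gene groups outside the pathways above differed by small amounts. Of 19 cholesterol synthesis genes of at least 10 CPM, 16 had a ratio over 1, with HMGCS1, an early enzyme of the pathway, at 267 CPM in members and 183 CPM in the other marrow stroma (1.46, 1.41 to 1.52). Of 14 integrin and adhesion genes, 11 were over 1, with ITGB5 at 68.3 and 47.4 CPM (1.44) and the lowest ratio for CDH13 (0.67). Patterning genes were near 1: HOXA9 was at 77.0 and 76.7 CPM (1.00) and PRRX1 at 445 and 404 CPM (1.10), while IRX3 was at 238 and 164 CPM (1.46). Among genes of antigen processing, PSMB9 had the lowest ratio, at 23.2 and 33.7 CPM (0.69), and among cell cycle regulators CCND2, at 29.7 and 49.97 CPM (0.59, 0.53 to 0.66). PLAT, the tissue plasminogen activator, was at 10.1 and 5.23 CPM (1.92, 1.56 to 2.36). These genes were chosen after their values were seen.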
